A study of Homo sapiens with 9 samples.

Results

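The genes described here encode the subunits of RNA polymerase II, the subunits of the Mediator complex and a set of factors that travel with the elongating polymerase. They were chosen by gene symbol and not by any measured value: POLR2A to POLR2L, every MED symbol, the Mediator kinase subunits CDK8, CDK19 and CCNC, and the elongation factors SUPT4H1, SUPT5H, SUPT6H, SUPT16H, SSRP1, PAF1, CTR9, LEO1, CDC73, RTF1 and TCEA1. This gave 56 of the 57773 genes in the deposited table, of which 12 were polymerase subunits, 33 were Mediator genes and 11 were elongation factors. RNA was measured in OVCAR-8, a cultured human ovarian carcinoma line, 48 h after transfection with CDK12-2 siRNA, with CDK12-6 siRNA or with a control siRNA against luciferase, a firefly enzyme that human cells lack. The 2 CDK12 siRNAs target the same mRNA. Each group had 3 libraries, numbered AK39, AK41 and AK49, so 6 CDK12 siRNA libraries were set against 3 luciferase libraries. The labels call these technical replicates and do not say what an AK number stands for, so the p-values below reflect library-to-library spread that may be only technical. No untransfected cells were analysed here, and all 3 groups carry a transfected siRNA.

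RNA polymerase II makes the mRNAs of the cell. Mediator relays signals from DNA-bound activators to the polymerase at promoters through its head, middle and tail modules, and its separable kinase module contains CDK8 or CDK19. CDK12 and its partner cyclin K phosphorylate the repeat tail of POLR2A, the polymerase's largest subunit, during elongation, where DSIF, SPT6, FACT, the PAF1 complex and TFIIS act on the polymerase or on the nucleosomes in its path.

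The libraries held 104963048 to 131472019 reads in listed genes, and each tested member had 788 reads or more in every library. CDK12 had 2.06 to 2.75 RPKM in the 6 CDK12 siRNA libraries (median 2.47) and 7.09 to 8.40 RPKM in the luciferase libraries. RPKM is a read count scaled to the length of the gene model and to the size of the library. That size includes reads outside the listed genes. Listed genes held 68.2% of the library in CDK12-2 AK39 and 70.5% in CDK12-6 AK39, against 82.7% in luciferase AK39. In the other libraries they held 75.8% to 82.6%. The log2 fold change of CDK12 on the log2(RPKM + 1) scale was -1.39 ± 0.0953 (SE; limma, adjusted p = 1.5e-05). The keratins KRT7, KRT8 and KRT18 were at 45.9 RPKM or more in every library and PAX8 at 5.71 or more, whereas CDH1 and MUC16 were near 0 throughout, below 0.045 and 0.00088 RPKM. In 3 libraries, CDK12-2 AK39, CDK12-6 AK39 and luciferase AK41, RNAs that lack a poly(A) tail took 0.0892% to 0.134% of the reads in listed genes, against 0.0263% to 0.0814% in the others. Levels also moved with the GC content of the gene between libraries of a group. Each library's deviation from the mean of its own siRNA group was set against GC content over genes. The rank correlations were -0.246, -0.412 and 0.48 in the CDK12-2 libraries AK39, AK41 and AK49, -0.49, -0.59 and 0.598 in the CDK12-6 libraries, and 0.295, -0.551 and 0.57 in the luciferase libraries. These values leave out differences between the groups. In bulk RNA, fewer cells expressing a gene and less of its RNA per cell cannot be told apart.

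All members but MED12L reached 1 RPKM in at least 3 libraries and were tested, which left 55. In luciferase libraries the mean level ran from 0.486 RPKM for MED12L to 111 RPKM for POLR2L. The median member of the polymerase had 24.4 RPKM, that of the elongation factors 16.5 RPKM and that of Mediator 8.20 RPKM in the luciferase libraries. With the mean of both CDK12 siRNAs against luciferase, 9 members rose and 10 fell at an adjusted p below 0.05 in limma. That is 34.5% of the 55, beside 33.0% of all 15208 genes tested (13.3% higher and 19.7% lower), so the share called was near the background. The median log2 fold change of the members was 0.01 and that of all tested genes was -0.04. All 19 called members had the same direction within each AK number, and for all 19 the 6 CDK12 siRNA libraries lay entirely above or entirely below the 3 luciferase libraries. The calls were made from these same libraries, so neither the shared direction nor the separation is separate support for them. Counting such separation alone gave 20 members, 10 above and 10 below, beside 34.2% of all tested genes (14.3% above and 19.9% below). Of the 19 called members, 14 had their lowest ratio of CDK12 siRNA over luciferase siRNA within AK39 and 5 within AK41. Within AK39, listed genes held a smaller share of the library with CDK12 siRNA than with luciferase siRNA. The part of that share in the AK39 ratios was not tested. The split between directions depends on the scaling: quantile normalization gave 17 higher and 9 lower, scaling to the reads in listed genes 16 and 10, and centring each library on its median 16 and 9. All genes were called more often too under these scalings, 43.4%, 43.1% and 44.3% of them in the same order. Those scalings moved the median over all genes from -0.04 to between 0.01 and 0.03, and none of the 19 changed sign under any alternative. The authors' deposited table, at a false discovery rate below 0.05, calls 19 members (8 higher, 11 lower), 16 of them shared with the limma calls and without MED4, MED19 and LEO1, beside 35.0% of all tested genes (13.1% higher and 21.9% lower).

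**Figure D1:**
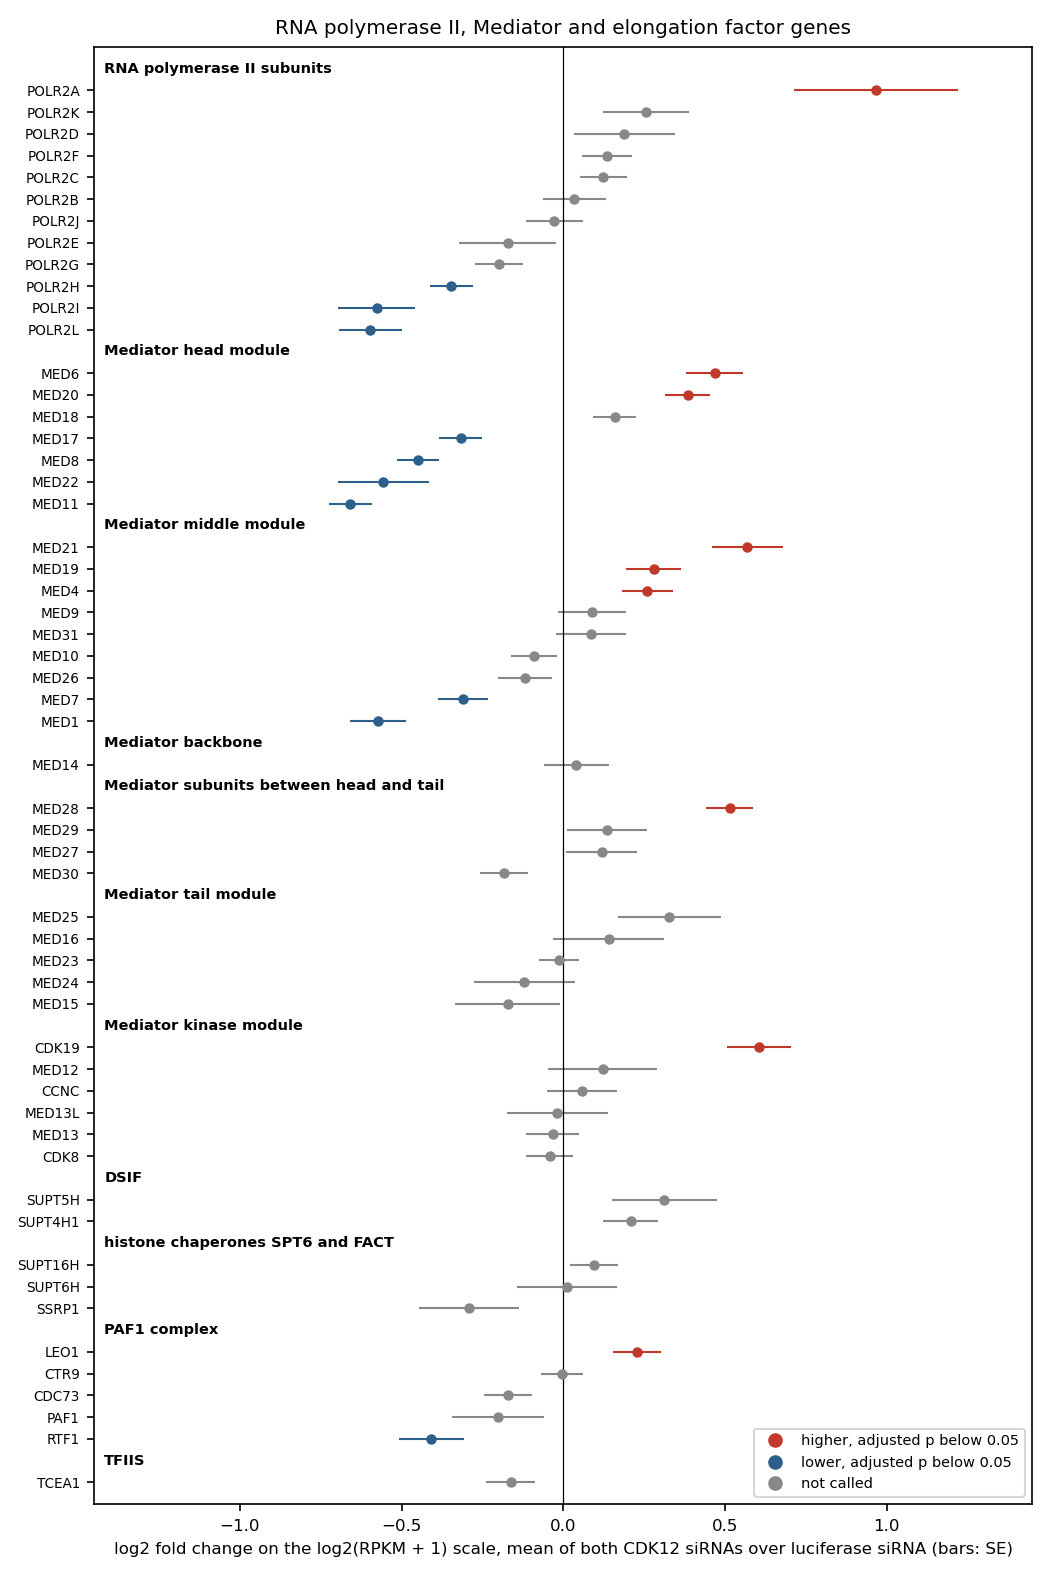
Log2 fold change (mean of both CDK12 siRNAs over luciferase, log2(RPKM + 1) scale, bars SE from limma) of the 55 tested members, grouped by complex or module. POLR2A is the highest at 0.97 and MED11 the lowest at -0.66; red points rose and blue points fell at an adjusted p below 0.05.

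Among the 12 polymerase subunits, POLR2A rose and 3 small subunits fell, while the other 8 did not pass the test. That is 33.3% of the 12, beside 33.0% of all tested genes, so the share called was near the background. POLR2A (chr17:7387685-7417933, hg19) encodes the catalytic subunit with the repeat tail that CDK12 phosphorylates. It had 37.5, 57.7 and 73.0 RPKM in CDK12-2 libraries, 35.4, 47.4 and 69.6 RPKM in CDK12-6 libraries, and 28.9, 19.2 and 31.0 RPKM in luciferase libraries (AK39, AK41 and AK49 in each group). The lowest CDK12 siRNA library lay above the highest luciferase library, and in both CDK12 siRNA groups AK39 was the lowest and AK49 the highest. The RPKM ratio of the means was 2.03, the log2 fold change was 0.97 ± 0.253 (SE), and the adjusted p was 0.016. The spread was wide: the log2 ratio was 0.33 within AK39, 1.41 within AK41 and 1.18 within AK49. Leaving out luciferase AK41, the lowest library, gave 0.76 with an adjusted p of 0.063, and leaving out all 3 AK41 libraries gave 0.75 with an adjusted p of 0.18. Without the filter on low values the adjusted p was 0.058. Correcting each library for GC content gave 1.03 with an adjusted p of 0.001.

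POLR2B, the second-largest subunit and POLR2A's partner in the active centre, had 35.5 to 43.6 RPKM in CDK12 siRNA libraries and 35.8 to 44.6 RPKM in luciferase libraries, with a log2 fold change of 0.03 (adjusted p = 0.82). Per length, the POLR2A level was above that of POLR2B in 4 of 6 CDK12 siRNA libraries and in 0 of 3 luciferase libraries. The 2 libraries below were those numbered AK39.

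The subunits that fell were POLR2L, POLR2I and POLR2H. POLR2L (chr11:837356-842545, hg19), a small zinc-binding subunit shared with RNA polymerases I and III, had 64.8, 73.7 and 73.8 RPKM in CDK12-2 libraries, 71.1, 73.8 and 81.5 RPKM in CDK12-6 libraries, and 124, 95.7 and 115 RPKM in luciferase libraries. Every CDK12 siRNA library was below every luciferase library, and the log2 fold change was -0.60 ± 0.098 (SE, adjusted p = 0.0015). It was called under every alternative run. Its span overlaps that of CD151 by 2476 bases, and CD151 averaged 16.4 RPKM in CDK12 siRNA libraries and 42.6 RPKM in luciferase libraries.

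POLR2I, which affects start site choice and fidelity in yeast, ran from 9.18 to 12.1 RPKM in CDK12 siRNA libraries (median 10.7) and had 18.6, 13.7 and 17.0 RPKM in luciferase libraries. The groups did not overlap, and the log2 fold change was -0.58 ± 0.119 (SE, adjusted p = 0.0053). Within AK numbers it was -0.93, -0.33 and -0.46 for AK39, AK41 and AK49, and without the AK39 libraries the adjusted p was 0.062. The gene overlaps TBCB, which averaged 10.6 RPKM with CDK12 siRNA and 16.8 RPKM with luciferase siRNA.

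POLR2H, shared by RNA polymerases I, II and III, ran from 8.21 to 9.89 RPKM in CDK12 siRNA libraries (median 8.80) and had 11.7, 11.4 and 11.2 RPKM in luciferase libraries. It fell by 0.35 on the log2 scale (SE 0.067, adjusted p = 0.0037) with no overlap between groups. Its whole span of 6879 bases lies within that of EIF2B5, and the adjusted p was 0.056 after the GC correction and 0.080 without the AK41 libraries.

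The other 8 polymerase subunits had log2 fold changes from -0.20 (POLR2G) to 0.26 (POLR2K). The stalk subunits POLR2D and POLR2G, which sit outside the core, had 0.19 (adjusted p = 0.39) and -0.20 (adjusted p = 0.064). The assembly pair POLR2C and POLR2J had 0.12 (adjusted p = 0.22) and -0.03 (adjusted p = 0.85). POLR2E, POLR2F and POLR2K, further subunits shared with other polymerases, had -0.17, 0.14 and 0.26, with adjusted p-values of 0.42, 0.22 and 0.17. Subunits of the same enzyme therefore differed in direction. Of those shared with other polymerases, POLR2L and POLR2H fell and the other 3 did not pass.

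**Figure D2:**
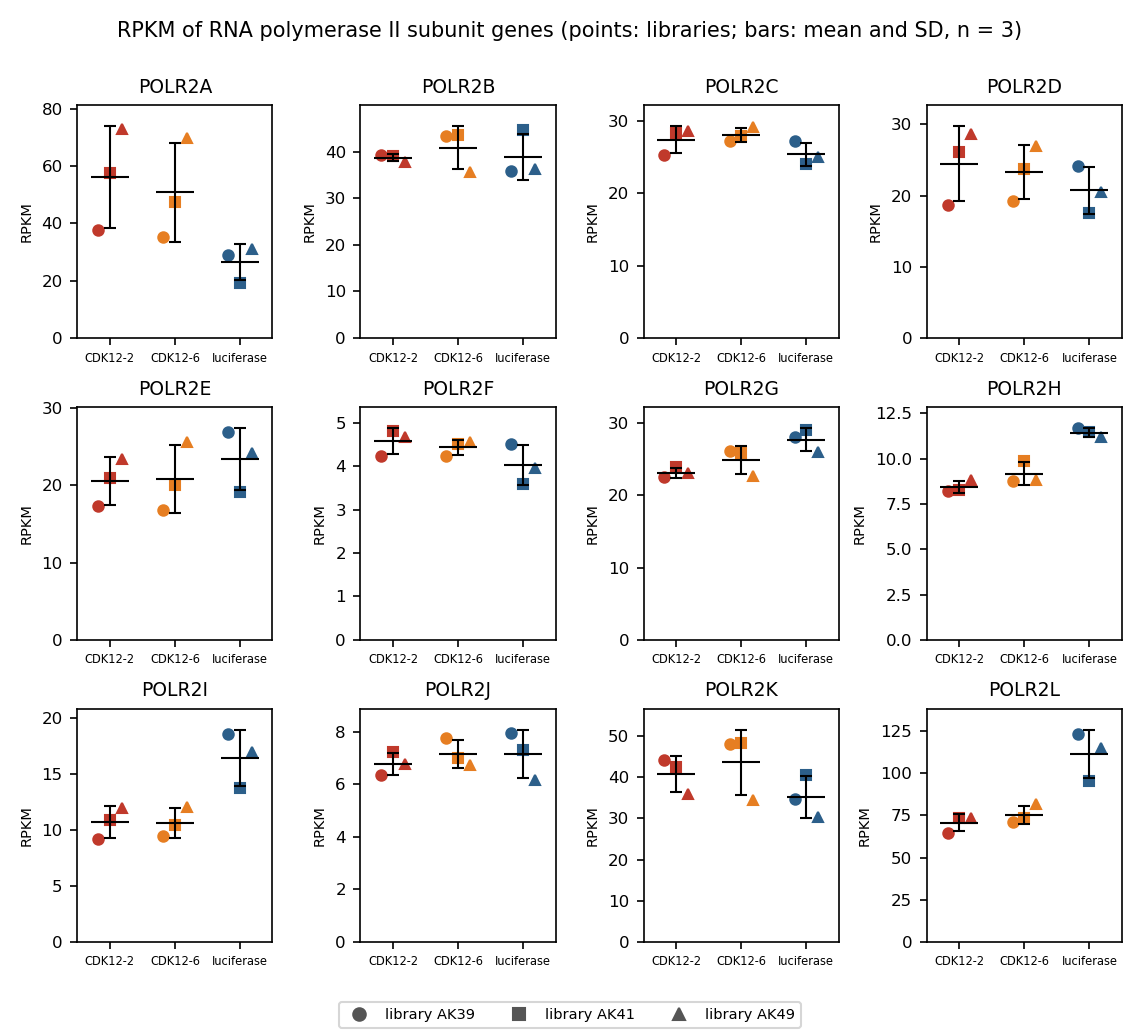
RPKM of each RNA polymerase II subunit gene in the CDK12-2, CDK12-6 and luciferase siRNA libraries, with a point per library (circle AK39, square AK41, triangle AK49) and the mean and SD of 3. POLR2A is above and POLR2H, POLR2I and POLR2L are below the luciferase libraries in all 6 CDK12 siRNA libraries.

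Promoter sequences from RefSeq (GRCh38.p14, 250 bases before to 50 after the start) are shown for POLR2A, which rose most, and for MED1, a Mediator gene that fell and lies near CDK12. The RefSeq promoter table matched 42 of the 56 members. Capitals mark the motifs searched on both strands, a list that was drawn up after these promoters had been read. They are TATAA, the core of the TATA box, then CCGGAAG, the core bound by ETS factors, then AAGATGGC, bound by YY1, then TCTCGCGA, a word with a pair of CpG sites, and then GGGCGG, the GC box bound by SP1. The POLR2A promoter lies at chr17:7484116-7484415 on the plus strand and that of MED1 at chr17:39451214-39451513 on the minus strand.
POLR2A: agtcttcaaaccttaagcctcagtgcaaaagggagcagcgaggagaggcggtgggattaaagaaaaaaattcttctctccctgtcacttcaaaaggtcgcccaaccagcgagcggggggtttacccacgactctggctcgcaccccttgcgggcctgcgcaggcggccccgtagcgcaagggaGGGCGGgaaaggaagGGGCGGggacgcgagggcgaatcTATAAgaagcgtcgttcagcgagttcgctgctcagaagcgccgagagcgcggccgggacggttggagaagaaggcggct
MED1: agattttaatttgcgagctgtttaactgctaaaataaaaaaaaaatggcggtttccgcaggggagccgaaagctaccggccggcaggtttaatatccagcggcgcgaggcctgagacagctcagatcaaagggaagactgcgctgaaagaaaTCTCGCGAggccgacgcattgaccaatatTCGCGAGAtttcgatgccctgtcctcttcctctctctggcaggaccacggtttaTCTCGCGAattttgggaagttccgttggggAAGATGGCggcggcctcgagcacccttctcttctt
TATAA stands at position -29 of the POLR2A promoter and is found in 5 of 42 member promoters (11.9%) and 21.1% of 27305 promoters of the same length. The 42 include POLR2A, LEO1, MED7, MED16 and MED17 with this motif. TCTCGCGA occurs at 3 places in the MED1 promoter and is held by 3 members (7.14%), against 1.19% of all promoters. GGGCGG, held by POLR2A, is in 66.7% of the member promoters and 44.6% of all promoters. CCGGAAG is in 33.3% and 10.7%, and AAGATGGC in 14.3% and 3.03%. The comparison set was all promoters of that length and not those of the tested genes, whereas all members but MED12L were tested. None of these shares was tested, and a match is only a stretch of letters.

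Mediator had 7 genes that rose and 6 that fell of 32 tested, 40.6%, beside the 33.0% of all genes. The head module, which contacts the polymerase, held 6 of these in its 7 subunits, with 2 higher and 4 lower and a median log2 fold change of -0.32. The middle module held 5 of 9 (median 0.09), the kinase module 1 of 6, the subunits between head and tail 1 of 4, and the tail module 0 of 5. The backbone subunit MED14, which joins the modules, had a log2 fold change of 0.04 and was not called. These module counts were not tested against each other.

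In the head module, MED11 (chr17:4634723-4636905, hg19), which pairs with MED22 and contacts TFIIH in yeast, had the lowest p-value of any member. It had 4.18, 4.14 and 4.01 RPKM in CDK12-2 libraries, 4.22, 4.30 and 3.94 RPKM in CDK12-6 libraries, and 6.73, 7.51 and 7.07 RPKM in luciferase libraries. The groups were separated by more than the whole range of either, and the log2 fold change was -0.66 ± 0.066 (SE, adjusted p = 9.4e-05). It rests on 788 to 1924 reads per library and was called under every alternative. The overlapping RP11-314A20.5 averaged 4.07 RPKM with CDK12 siRNA and 7.08 RPKM with luciferase siRNA, and reads from the stretch they share cannot be told apart without strand.

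MED22, the partner of MED11, ran from 5.21 to 7.81 RPKM in CDK12 siRNA libraries (median 6.20) and had 10.4, 8.31 and 11.0 RPKM in luciferase libraries. It fell by 0.56 on the log2 scale (SE 0.14, adjusted p = 0.013), and leaving out luciferase AK39 or luciferase AK49 ended the call (adjusted p = 0.064 and 0.068). Leaving out all 3 AK39 or all 3 AK41 libraries also ended the MED22 call (adjusted p = 0.117 and 0.074). MED8, which tethers the MED18 and MED20 pair to the head in yeast, ran from 8.00 to 9.08 RPKM in CDK12 siRNA libraries (median 8.46) and had 11.9, 12.5 and 11.5 RPKM in luciferase libraries. Its groups did not overlap, its log2 fold change was -0.45 ± 0.065 (SE, adjusted p = 0.0008), and every alternative kept the call. The span of MED8 overlaps that of RP1-92O14.6 by 4043 bases. RP1-92O14.6 averaged 7.2 RPKM with CDK12 siRNA and 9.7 RPKM with luciferase siRNA. MED17, the scaffold of the head, had 7.02 to 7.96 RPKM in CDK12 siRNA libraries (median 7.39) and 9.47, 9.21 and 9.80 RPKM in luciferase libraries. It fell by 0.32 (SE 0.067, adjusted p = 0.0057; 0.10 without the AK41 libraries).

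The head subunits that rose were MED6 and MED20. MED6, a subunit conserved from yeast, ran from 12.5 to 16.6 RPKM in CDK12 siRNA libraries (median 15.0) and had 10.6, 9.98 and 10.3 RPKM in luciferase libraries, a log2 fold change of 0.47 ± 0.089 (SE, adjusted p = 0.0034). MED20 ran from 10.4 to 12.2 RPKM in CDK12 siRNA libraries (median 11.7) and had 8.61, 8.55 and 8.76 RPKM in luciferase libraries, a log2 fold change of 0.39 ± 0.069 (SE, adjusted p = 0.0025). Neither overlapped its luciferase libraries, and each lost its call without the AK41 libraries (adjusted p = 0.098 for both). MED18, the partner of MED20, had 7.81 to 8.72 RPKM in CDK12 siRNA libraries and 6.88 to 7.47 RPKM in luciferase libraries, without overlap, but its log2 fold change of 0.16 did not pass (adjusted p = 0.093). The head subunits thus lay on both sides of their luciferase levels, and MED6 and CTD-2540L5.5, which overlaps it and averaged 29.4 RPKM with CDK12 siRNA and 21.0 RPKM with luciferase siRNA, may share reads.

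In the middle module, MED1 and MED7 fell and MED21, MED19 and MED4 rose. MED1, through which nuclear receptors contact Mediator, had 8.19, 9.52 and 10.3 RPKM in CDK12-2 libraries, 8.35, 8.93 and 9.76 RPKM in CDK12-6 libraries, and 14.7, 13.3 and 14.3 RPKM in luciferase libraries. All 6 CDK12 siRNA libraries were below the luciferase libraries, with a log2 fold change of -0.57 ± 0.085 (SE, adjusted p = 0.0009) that was called under every alternative. MED1 (chr17:37560538-37607539, hg19) lies near the targeted gene, 10224 bases from CDK12 (chr17:37617764-37721160). CTB-131K11.1, which overlaps MED1, averaged 8.16 RPKM with CDK12 siRNA and 14.0 RPKM with luciferase siRNA.

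MED7 and MED21 form the hinge of the middle module, and they moved in opposite directions. MED21 ran from 16.4 to 21.8 RPKM in CDK12 siRNA libraries (median 18.6) and had 12.4, 13.8 and 10.7 RPKM in luciferase libraries, a log2 fold change of 0.57 ± 0.109 (SE, adjusted p = 0.0035; 0.056 without the AK39 libraries). MED7 ran from 2.34 to 3.05 RPKM in CDK12 siRNA libraries (median 2.57) and had 3.35, 3.90 and 3.21 RPKM in luciferase libraries, a log2 fold change of -0.31 ± 0.077 (SE, adjusted p = 0.013). Groups did not overlap for either gene. The MED7 call was lost under 7 of 22 alternatives, among them leaving out luciferase AK41 (adjusted p = 0.056), quantile normalization (0.068) and median centring (0.090).

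MED4 and MED19 rose by less. MED4 ran from 28.0 to 33.0 RPKM in CDK12 siRNA libraries (median 30.6) and had 25.6, 26.7 and 23.8 RPKM in luciferase libraries, a log2 fold change of 0.26 ± 0.078 (SE, adjusted p = 0.028). MED4-AS1, which overlaps MED4 by 2855 bases, averaged 42.1 RPKM with CDK12 siRNA and 35.1 RPKM with luciferase siRNA. MED19 ran from 9.08 to 11.0 RPKM in CDK12 siRNA libraries (median 10.3) and had 9.01, 7.37 and 8.35 RPKM in luciferase libraries, a log2 fold change of 0.28 ± 0.086 (SE, adjusted p = 0.032). The authors' deposited table does not call either, with false discovery rates of 0.117 for MED4 and 0.0572 for MED19. Each limma call was lost under 8 of 23 alternatives. For MED4 these included leaving out CDK12-2 AK41, CDK12-6 AK39, CDK12-6 AK41, luciferase AK39 or luciferase AK49 (adjusted p = 0.057 to 0.132). For MED19 they included leaving out CDK12-2 AK41, CDK12-2 AK49, CDK12-6 AK41, luciferase AK41 or luciferase AK49 (adjusted p = 0.057 to 0.126). The remaining middle subunits MED9, MED10, MED26 and MED31 had log2 fold changes from -0.12 to 0.09 and did not pass.

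Between head and tail, MED28, a subunit found in animals, had 6.37, 7.22 and 7.51 RPKM in CDK12-2 libraries, 6.75, 7.68 and 7.23 RPKM in CDK12-6 libraries, and 4.80, 4.56 and 4.68 RPKM in luciferase libraries. The luciferase libraries lay close together and below all others, and the log2 fold change was 0.51 ± 0.074 (SE, adjusted p = 0.0007; 0.053 without the AK41 libraries). MED27, MED29 and MED30 had 0.12, 0.14 and -0.18 and did not pass. The tail subunits MED15, MED16, MED23, MED24 and MED25, which bind activators, had log2 fold changes from -0.17 (MED15) to 0.33 (MED25) with none past the threshold. MED25 had 5.76 to 9.03 RPKM in CDK12 siRNA libraries and 4.34 to 6.28 RPKM in luciferase libraries (adjusted p = 0.14). The authors' deposited table lists MED25 at a log2 fold change of 0.38 and a false discovery rate of 0.019.

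The kinase module had 1 gene that rose, CDK19 (chr6:110931181-111137161, hg19), the paralog of CDK8. CDK19 had 3.05, 3.96 and 4.31 RPKM in CDK12-2 libraries, 2.92, 3.38 and 3.52 RPKM in CDK12-6 libraries, and 2.15, 1.76 and 1.97 RPKM in luciferase libraries. The groups did not overlap, and the RPKM ratio of the means was 1.80, with a log2 fold change of 0.61 ± 0.099 (SE, adjusted p = 0.0014; 0.064 without the AK41 libraries). CDK8 had 7.83 to 9.28 RPKM in CDK12 siRNA libraries and 8.52 to 9.38 RPKM in luciferase libraries, a log2 fold change of -0.04 (adjusted p = 0.70).

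CDK19 therefore made up a larger share of the summed CDK8 and CDK19 level, 28.9% ± 2.14 (SD, n = 6) with CDK12 siRNA and 18.1% ± 1.12 (SD, n = 3) with luciferase siRNA. The difference was 10.9 percentage points, higher in 6 of 6 CDK12 siRNA libraries than in any luciferase library, and the exact two-sided permutation p was 0.0238, the smallest that 6 against 3 libraries can give. Adjusted over the 3 paralog pairs examined it was 0.0714 and did not pass. With 3 pairs, a pair at the smallest p can pass only if another pair also reaches it. The adjusted value therefore cannot decide whether the CDK19 share changed. MED13L made up 43.6% ± 3.52 of its pair with MED13 in CDK12 siRNA libraries and 43.3% ± 3.41 in luciferase libraries (exact permutation p = 0.905, adjusted p = 0.905). MED12L made up 10.4% ± 0.655 of its pair with MED12 in CDK12 siRNA libraries and 10.1% ± 0.855 in luciferase libraries (exact permutation p = 0.548, adjusted p = 0.821). CCNC, the cyclin of both kinases, and MED12, MED13 and MED13L had log2 fold changes of 0.06, 0.12, -0.03 and -0.02 and did not pass. MED12L was not tested, with 0.444 to 0.711 RPKM in CDK12 siRNA libraries and 0.411 to 0.554 RPKM in luciferase libraries.

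**Figure D3:**
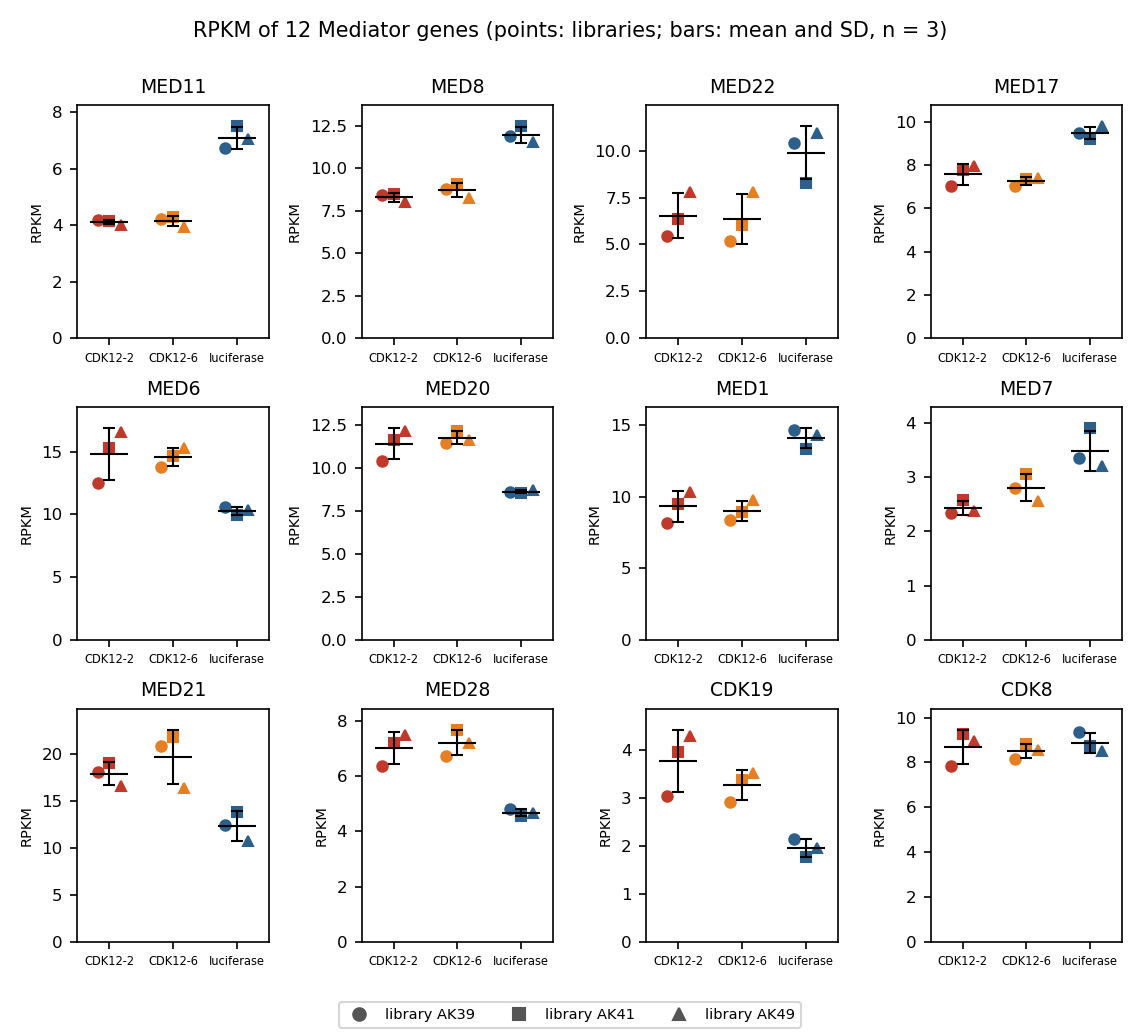
RPKM of 12 Mediator genes in the CDK12-2, CDK12-6 and luciferase siRNA libraries, with a point per library (circle AK39, square AK41, triangle AK49) and the mean and SD of 3. In MED11, MED8, MED22, MED17, MED1 and MED7 the 6 CDK12 siRNA libraries are below the luciferase libraries, in MED6, MED20, MED21, MED28 and CDK19 they are above, and in CDK8 the groups overlap.

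Of the 11 elongation factors 1 rose and 1 fell, 18.2% beside the 33.0% of all genes, and both belong to the PAF1 complex, which rides on the polymerase and promotes histone modification behind it. RTF1, which is needed for ubiquitination of histone H2B, ran from 6.73 to 8.89 RPKM in CDK12 siRNA libraries (median 8.00) and had 11.6, 9.79 and 10.9 RPKM in luciferase libraries. It fell by 0.41 on the log2 scale (SE 0.10, adjusted p = 0.012), by more within AK39 (0.68) than within AK41 and AK49 (0.26 and 0.28). Leaving out luciferase AK39 or luciferase AK49 gave an adjusted p of 0.069 and 0.0508. Without all 3 AK39 or all 3 AK41 libraries the adjusted p of RTF1 was 0.082 and 0.088. LEO1 ran from 11.8 to 13.5 RPKM in CDK12 siRNA libraries (median 12.9) and had 10.4, 11.5 and 10.3 RPKM in luciferase libraries, a log2 fold change of 0.23 ± 0.074 (SE, adjusted p = 0.040). LEO1 overlaps MAPK6 and TMOD3, which averaged 19.9 and 11.1 RPKM with CDK12 siRNA and 17.0 and 22.6 RPKM with luciferase siRNA. The authors' deposited table gives LEO1 a false discovery rate of 0.185. The limma call of LEO1 was lost under 9 of 23 alternatives, among them leaving out CDK12-2 AK41, CDK12-2 AK49, CDK12-6 AK39, CDK12-6 AK41, luciferase AK39 or luciferase AK49 (adjusted p = 0.073 to 0.154).

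The scaffold subunits PAF1, CTR9 and CDC73 did not pass, with log2 fold changes of -0.20, -0.004 and -0.17. Nor did the DSIF subunits that bind the polymerase clamp: SUPT5H had 12.0 to 19.4 RPKM in CDK12 siRNA libraries and 10.2 to 13.5 RPKM in luciferase libraries (log2 fold change 0.31, adjusted p = 0.17), and SUPT4H1 had 0.21 (adjusted p = 0.089). The SUPT5H ratio was -0.10 within AK39 and 0.57 and 0.47 within AK41 and AK49. The authors' deposited table calls SUPT5H at 0.33 with a false discovery rate of 0.030. The histone chaperones SUPT6H, SUPT16H and SSRP1 had 0.01, 0.10 and -0.29, and TCEA1, which rescues backtracked polymerase, had -0.16 (adjusted p = 0.13). The authors' deposited table calls SSRP1 at -0.30 with a false discovery rate of 0.046, where limma gave an adjusted p of 0.18.

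**Figure D4:**
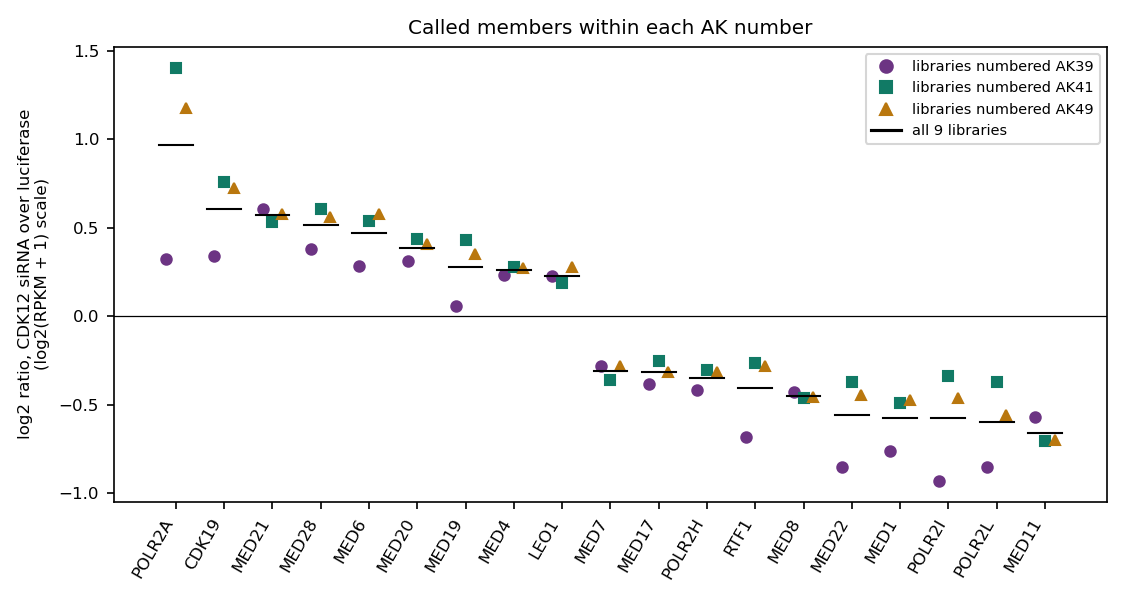
Log2 ratio of CDK12 siRNA over luciferase siRNA (log2(RPKM + 1) scale) within each AK number for the 19 called members, with the value over all 9 libraries as a line. All points lie on the side of their line's sign. The ratio within AK39 is 0.33 for POLR2A, its smallest rise, and -0.93 for POLR2I, its largest fall.

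The 2 CDK12 siRNAs were each set against the same 3 luciferase libraries, so their results are not independent and are given side by side. CDK12-2 siRNA had 6 members higher and 10 lower, beside 25.2% of all genes called (9.76% and 15.4%), and CDK12-6 siRNA had 7 higher and 9 lower, beside 26.0% (10.4% and 15.6%). With both siRNAs 15 members passed in 1 direction, as did 22.4% of all genes. POLR2A had 1.04 with CDK12-2 (adjusted p = 0.028) and 0.90 with CDK12-6 (adjusted p = 0.049), CDK19 0.68 and 0.53, and MED11 -0.66 and -0.65. MED7 passed with CDK12-2 (-0.38, adjusted p = 0.012) and not with CDK12-6 (-0.24, adjusted p = 0.079). MED19 passed with CDK12-6 (0.31, adjusted p = 0.045) and not with CDK12-2 (0.25, adjusted p = 0.094). MED4 and LEO1 passed with neither alone. Without luciferase AK39 the count was 10 for each siRNA, beside 14.7% of all genes for CDK12-2 and 14.5% for CDK12-6. Without luciferase AK49 it was 11 for CDK12-2 and 10 for CDK12-6, beside 16.1% and 16.0% of all genes.

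Set against each other directly, CDK12-2 and CDK12-6 differed in no member in limma, beside 0.0% of all genes. No member had an unadjusted p below 0.05 either, against 101 (0.664%) of all 15208 genes. With the AK number as a block no member did, against 1.2% of all genes. Both shares are well below what a threshold of 0.05 gives where nothing differs. These fits were therefore conservative and could miss small differences between the siRNAs. The differences ran from -0.15 for MED7 to 0.15 for CDK19 in log2 units, so the difference of MED7 and MED19 between siRNAs was not shown.

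The heptamer GTGGGCA had been singled out earlier in these libraries as a 3′ UTR word whose genes fell, so it was looked up here and its values are not independent evidence. That earlier result is not shown here. In GENCODE v29 transcripts it is present in the 3′ UTR of 6 of 56 members (10.7%) and of 13.0% of 10923 tested genes with a 3′ UTR. Of the 6, MED11 and MED7 fell, MED28 and POLR2A rose, and MED26 and MED29 did not pass. Of all tested genes, 19.7% fell and 13.3% rose. The sites are shown with up to 8 bases on either side and the heptamer in capitals; that of POLR2A begins at the first base after the stop codon.
MED11: ggcaaatgGTGGGCAtggaaaaa
MED7: ggtgaaatGTGGGCAtaggaatc
MED28: ttagttttGTGGGCAgcctcaga
POLR2A: GTGGGCAgtggggct
MED26: gcaggcagGTGGGCAggtggccg
MED29: gggcggagGTGGGCAccactgag

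The machinery around these genes was read from lists of the general transcription factors, TFIID, other elongation and polymerase-handling factors, and RNA polymerases I and III. Their counts stand beside the 33.0% of all tested genes that were called, 13.3% higher and 19.7% lower. Of 17 general transcription factors tested none rose and 1 fell, GTF2H3, a TFIIH subunit, which averaged 11.4 RPKM ± 1.01 with CDK12 siRNA and 15.7 RPKM ± 0.423 with luciferase siRNA (SD, n = 6 and 3; log2 fold change -0.43, adjusted p = 0.0042). Of 15 TFIID subunits 1 rose, TAF5 (0.32, adjusted p = 0.0076), and 4 fell, with TAF12 (-0.59, adjusted p = 0.00046) and TAF13 (-0.37, adjusted p = 0.0091) at the lowest p-values. The median log2 fold changes of these lists were -0.03 and -0.10, beside -0.04 for all tested genes.

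Beside the same 33.0% of all genes, 1 of 22 other elongation or polymerase-handling factors tested rose and 4 fell, with a median of -0.07 over the list. RPRD1A, which binds the POLR2A tail, had 3.50 to 4.18 RPKM in CDK12 siRNA libraries and 8.51 to 9.62 RPKM in luciferase libraries, a log2 fold change of -1.02 ± 0.0748 (SE, adjusted p = 2e-05). RPAP2, a phosphatase of that tail, had 1.15 to 1.42 RPKM in CDK12 siRNA libraries and 1.99 to 2.23 RPKM in luciferase libraries (-0.42, adjusted p = 0.0011). TCEA2, a TFIIS paralog, was the gene that rose (0.39, adjusted p = 0.033). Of 19 genes of RNA polymerases I and III, 2 rose, POLR1C (0.27, adjusted p = 0.015) and TWISTNB (0.36, adjusted p = 0.047), and 5 fell, with a median of -0.14 over the list. Among the 5 were POLR3G, with 9.60 to 13.2 RPKM in CDK12 siRNA libraries and 19.7 to 25.9 RPKM in luciferase libraries (-0.91, adjusted p = 0.00038), and POLR3GL (-0.38, adjusted p = 0.0080). The POLR2J relatives POLR2J2, POLR2J3 and POLR2J4, near-identical copies that may share reads with POLR2J, gave 2 tested entries and no call. Both entries are named POLR2J4, and POLR2J2 and POLR2J3 were not tested.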

How the data were processed

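Per the labels' protocols, total RNA was extracted from frozen cells and libraries were made with a TruSeq mRNA kit, which selects poly(A) RNA and does not mark strand. Reads from a stretch that overlapping genes share therefore cannot be told apart by strand. The spans of 30 of the 56 members, introns included, overlap that of another gene at 1 RPKM or more. Some of these overlaps are short, such as 34 bases for POLR2E with HMHA1. The submitters' processing notes name TopHat2, featureCounts, edgeR and hg19; their settings and the annotation version are not given in the sources used here. In the table, RPKM per gene and library were deposited by the authors, and their steps gave whole reads in 100% of values within 0.001; these reads served for depth only. The deposited table also holds the authors' log2 fold changes and the false discovery rates (adjusted p-values) of their own comparison, and both were used as given.

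A gene was kept at 1 RPKM or more in 3 or more libraries (15208 of 57773). On log2(RPKM + 1), a fold-change scale that understates the change of low genes, limma 3.58.1 in R 4.3.3 (lmFit, contrasts, eBayes with trend) was fitted to all 9 libraries in 3 groups, with Benjamini-Hochberg adjustment over all tested genes and a threshold of 0.05; the fit was tested on simulated data. Shares of paralogs were compared by exact two-sided permutation (scipy 1.17.1). Coordinates of genes are those of the files (hg19), promoters are RefSeq GRCh38.p14, and 3′ UTRs are GENCODE v29. The promoter sequence of 1 further gene is not reported here.

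Equal AK numbers paired CDK12-2 with CDK12-6 libraries by the data for AK39 and AK49 but hardly for AK41 (correlation of deviations from group means 0.764, 0.809 and 0.13). The AK number as a block left 0 genes different between those siRNAs. Alternatives covered the pseudocount, filter, scaling, GC content, AK block, libraries left out and the eBayes settings. The members and gene lists were chosen with earlier results of these data known. All members were accounted for; those past the threshold, a few fixed others and up to 2 genes per direction of each context list were named.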

Additional observations from a re-analysis of the deposited data

How the results depend on the processing

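With the mean of both CDK12 siRNAs, 14 to 21 of 55 members passed when single libraries were left out, against 19 with all 9, beside 19.5% to 35.1% of all genes (33.0% with all 9). A pseudocount of 0.1 and robust eBayes gave 19 (32.8% and 32.4% of all genes), and a 5 RPKM filter and no filter gave 17 (31.4% and 13.9%). The AK number as a replicate block gave 24 members (19 for CDK12-2, 20 for CDK12-6), beside 41.0% of all genes (33.4% and 33.9%). The numbers did not pair CDK12 siRNA with luciferase libraries in a uniform way. For CDK12-2 and CDK12-6 the correlations of deviations with luciferase were -0.563 and -0.51 in AK39, -0.125 and 0.466 in AK41, and 0.648 and 0.755 in AK49. The GC correction gave 30 members, 18 of them higher, and 36 and 22 together with the block, beside 53.4% and 58.3% of all genes. For CDK12-2 (16 members, 6 higher and 10 lower) these were 25 and 14, then 31 and 18 (46.9% and 52.5% of all genes). For CDK12-6 (16, 7 and 9) they were 25 and 16, then 30 and 19 (47.4% and 53.1%). More members were also higher after quantile normalization, scaling to reads in listed genes and median centring, namely 17, 16 and 16 for both siRNAs, 15, 13 and 12 for CDK12-2 (25 called after quantile normalization), and 11, 11 and 13 for CDK12-6, beside 36.2% to 44.3% of all genes called over these fits. Leaving out single libraries gave 10 to 19 members for CDK12-2 (4 to 7 higher, 6 to 12 lower; 14.7% to 27.7% of all genes) and 10 to 16 for CDK12-6 (5 to 8 higher, 5 to 9 lower; 14.5% to 29.0%).

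Leaving out all 3 libraries of an AK number, which leaves 2 a group, lowered the counts most for AK41: 6 members for both siRNAs (1 higher, 5 lower), 2 for CDK12-2 (0 and 2) and 1 for CDK12-6 (0 and 1), beside 11.0%, 5.18% and 5.60% of all genes. Without AK39, 6 were lower for both siRNAs, with 10 called and 4 lower for CDK12-2, and 8 and 3 for CDK12-6, beside 20.4%, 13.7% and 12.5% of all genes. Without AK49, CDK12-6 had 10 called, 4 higher, beside 16.6%. The cause was not tested. Among the 19 called members 52 calls were lost over all alternatives and no sign changed, and 19 of the other 36 gained a call under at least 1, most often MED25 (6), SUPT5H, MED27, POLR2C and POLR2F (5 each). The scalings, the GC correction and the AK block called 41.0% to 58.3% of all genes, against 33.0% in the main fit. Gained calls among all genes are not given here, so these gains are not particular to the members. CDK12-2 against CDK12-6 gave 0 members throughout. The CDK19 share differed by 9.65 to 12.1 percentage points and did not pass, but with so few libraries this pair alone could not pass. Fitting the compared groups alone gave 15 members for each siRNA (22.9% and 23.4% of all genes); for their mean it is the same fit.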
